A study of Mus musculus with 12 samples.

Results

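Angptl4, Pdk1, Pdk2, Pdk4, Ucp2 and Ucp3 were examined in mouse liver as a set of 6 genes that PPAR receptors are known to control in one tissue or another. The members were fixed by gene symbol, and were chosen with earlier results of these data known. Each was read from a probe set annotated to that gene alone, and where a gene had more than 1 such probe set, from the one with the highest mean over all arrays. Of the 6 genes, 5 had a probe set (1 each, and 2 for Pdk1), out of 22180 genes in all. Ucp2 had 0 probe sets in the annotation used here and was not analysed. Angptl4, Pdk1, Pdk2 and Pdk4 were among the 14031 genes tested, and Ucp3 lay below the filter on dim genes on all 12 arrays.

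The study measured liver RNA from males on 12 Affymetrix Mouse Gene 2.0 ST arrays, in 4 groups of 3: wild-type on control diet, wild-type on ethanol diet, Pparβ/δ-null on control diet and Pparβ/δ-null on ethanol diet. Pparβ/δ-null mice (Pparβ/δ-/-, null mice below) lack the nuclear receptor PPARβ/δ, encoded by Ppard. All mice had a C57BL/6 background, were 8 to 10 weeks of age per the labels, spent 1 week on the liquid control diet, and then received the control or the ethanol liquid diet, the latter with 4% ethanol by volume, for 16 weeks. The labels do not say which part of Ppard is disrupted or whether each array is a mouse of its own, so the errors and tests reflect how far these samples spread, which may be technical. With 3 arrays a group, their number sets the precision.

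PPARα, PPARβ/δ and PPARγ are receptors for fatty acids that bind DNA as partners of retinoid X receptors, and in liver they switch on genes for burning and handling fat. Angptl4 encodes a secreted protein that blocks lipoprotein lipase and so limits fat uptake from blood. The pyruvate dehydrogenase kinases encoded by Pdk1, Pdk2 and Pdk4 phosphorylate and shut off the pyruvate dehydrogenase complex, which spares glucose while fat is burned. Ucp2 and Ucp3 encode carriers of the inner mitochondrial membrane, of which Ucp3 is known mainly from muscle.

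Values are log2 intensities, and a difference of 1 is a doubling. In ranges over the arrays, the array medians lay between 5.55 and 5.62, and the filter lay between 5.61 and 5.71. All 10 hepatocyte markers, Alb among them, lay at or above 12.67 on every array. Ppard read 7.64 to 8.01 in wild-type mice on control diet, 7.77 to 7.96 with ethanol, and in null mice 7.69 to 7.91 and 7.88 to 8.06. It was not called lower in the null arrays (0.08 ± 0.08 SE, limma adjusted p = 0.621), and the sources used here do not place its probes relative to the disruption, so it checks no label. Without wild-type control 2, the number of all genes called for ethanol in wild-type mice went from 13 to 810, while it was 0 to 32 without any other array. In whole liver, fewer cells of a type and less RNA per cell cannot be told apart.

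The sequences around the transcription starts of 5 of the 6 members (all but Angptl4) were taken from RefSeq on GRCm38.p6, from 250 bases before to 50 bases after the start. Pdk1 is shown as the member with a called genotype difference, Pdk4 as the member with the largest differences between groups, and Ucp3 as the one that carried the searched half-site. Letters in capitals are matches to the nuclear receptor half-site AGGTCA, searched on both strands. The Pdk1 sequence lies on the plus strand at chr2:71872974-71873273, Pdk4 on the minus strand at chr6:5496229-5496528, and Ucp3 on the plus strand at chr7:100472741-100473040.
Pdk1: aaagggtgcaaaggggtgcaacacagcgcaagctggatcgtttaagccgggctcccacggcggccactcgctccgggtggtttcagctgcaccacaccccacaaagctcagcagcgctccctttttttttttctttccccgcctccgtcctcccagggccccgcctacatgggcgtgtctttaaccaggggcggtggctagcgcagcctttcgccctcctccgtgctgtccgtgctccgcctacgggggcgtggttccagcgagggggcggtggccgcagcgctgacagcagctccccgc
Pdk4: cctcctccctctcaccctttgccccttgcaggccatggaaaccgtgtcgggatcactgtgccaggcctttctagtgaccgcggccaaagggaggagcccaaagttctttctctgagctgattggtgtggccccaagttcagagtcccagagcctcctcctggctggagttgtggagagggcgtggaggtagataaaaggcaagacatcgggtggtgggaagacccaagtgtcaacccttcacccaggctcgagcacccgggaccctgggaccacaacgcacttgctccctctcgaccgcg
Ucp3: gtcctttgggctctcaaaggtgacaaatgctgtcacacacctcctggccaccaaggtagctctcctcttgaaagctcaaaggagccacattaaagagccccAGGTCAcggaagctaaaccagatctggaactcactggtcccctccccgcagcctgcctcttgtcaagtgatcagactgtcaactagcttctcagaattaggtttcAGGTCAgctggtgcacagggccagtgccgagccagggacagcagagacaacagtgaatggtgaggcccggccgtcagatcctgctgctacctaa
The G and C content was 66% for this Pdk1 start, 60.7% for Pdk4 and 55% for Ucp3. Ucp3 held 2 half-sites, both on the plus strand, at bases -149 to -144 and -44 to -39 counted from the start, and the 6 other listed starts (2 each for Pdk1 and Pdk2, 1 each for Pdk4 and Ucp2) held 0. Of the 32851 RefSeq start regions of the same length, 16.3% held a half-site. The direct repeat AGGTCANAGGTCA was found in 0.0396% of all regions and in 0 of the 7 members' regions. The hypoxia core ACGTG was found in 19.6% of all regions and, among the members, at 1 Pdk2 start, where a plus-strand and a minus-strand match overlapped within bases -126 to -121. A match describes letters, and the windows leave out more distant elements.

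**Figure D1:**
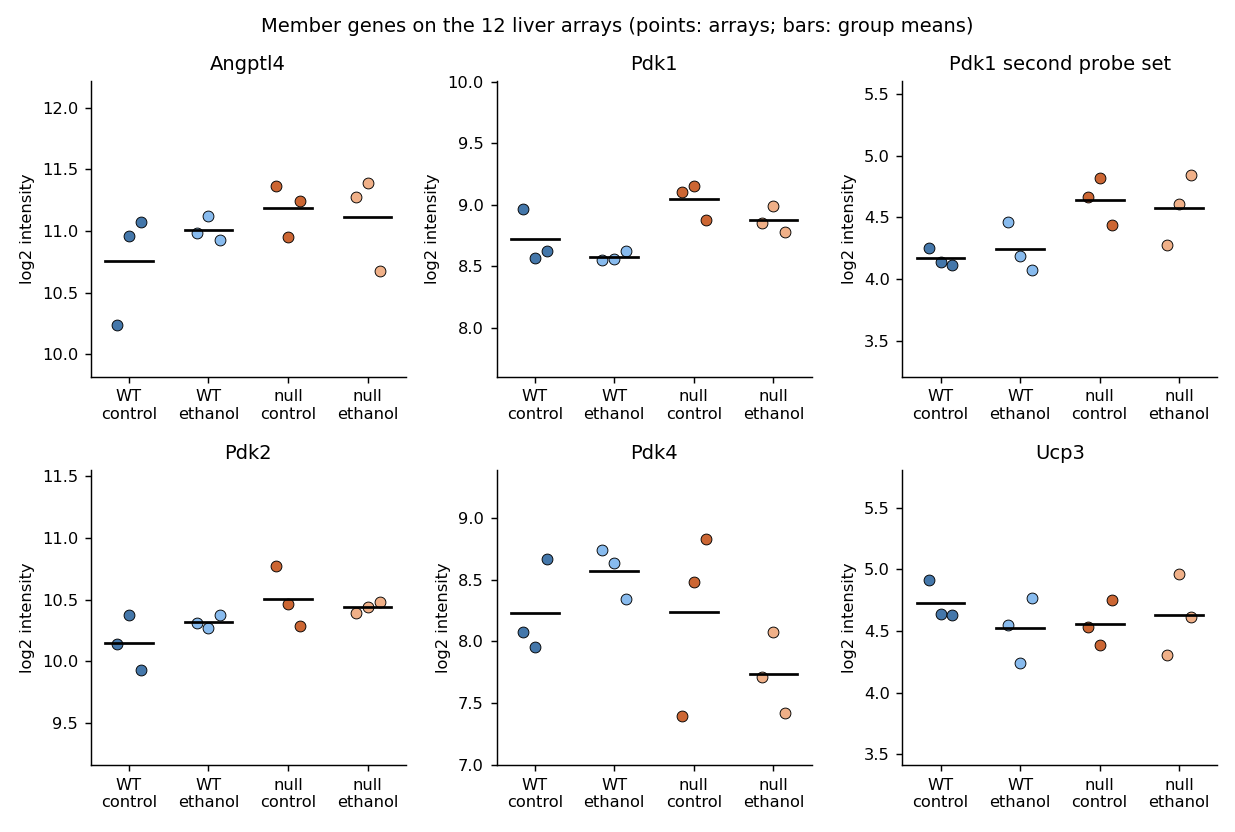
Each panel plots log2 intensity for 1 gene or probe set on the 12 arrays, by group (WT: wild-type), with points for arrays and bars for group means, on axes of equal span. Pdk1 lay higher in all 6 null arrays than in 5 of the 6 wild-type arrays, Pdk4 spread from 7.40 to 8.83 within the null control group, and Ucp3 stayed below 5.

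Genotype differences of these genes were read first from null minus wild-type livers averaged over both diets. An average can join unlike differences on the single diets, which are given below for each gene. Pdk1, the kinase known as a hypoxia-inducible member of its family, rose 1.24-fold in null livers and was the 1 member called. Angptl4, a classical target of PPARβ/δ, was 1.21-fold higher in null than in wild-type livers without passing the test. Pdk2, the kinase most widely expressed across tissues, was 1.18-fold higher and Pdk4, the kinase induced by fasting, was 1.34-fold lower, and neither passed. Thus 1 of the 4 tested members was called where limma called 7% of all 14031 genes. The median log2 change of the 4 was 0.25 against -0.00047 over all genes.

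In wild-type mice, Pdk1 read 8.97, 8.57 and 8.62 (replicates 1 to 3) on control diet and 8.55, 8.56 and 8.63 with ethanol. Null mice gave 9.10, 9.15 and 8.88 on control diet and 8.85, 8.99 and 8.78 with ethanol. Wild-type control 1 was thus the 1 wild-type array within the null range, and all 6 null arrays lay above the wild-type mean. Group means were 8.72 ± 0.22 and 8.58 ± 0.04 in wild-type and 9.05 ± 0.15 and 8.87 ± 0.11 in null mice (control and ethanol diet, SD, n = 3). The genotype difference averaged over the diets was 0.31 ± 0.08 (SE, 95% confidence interval 0.13 to 0.49, limma adjusted p = 0.039).

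The 2 single-diet differences of Pdk1 were alike in size. On control diet it was 0.33 ± 0.12 higher in null livers (limma adjusted p = 0.119), with overlapping arrays, and on ethanol 0.30 ± 0.12 higher (adjusted p = 0.227), with arrays that did not overlap. The call for the average was kept without wild-type control 1, null control 3 or null ethanol 3, and it was lost without any of the other 9 arrays. Over those 12 fits the difference stayed between 0.27 and 0.37, with adjusted p from 0.0122 to 0.0982. It was also lost when no filter on dim genes was set (adjusted p = 0.077) or when array medians were subtracted (adjusted p = 0.0512), at a difference of 0.31 in both.

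**Figure D2:**
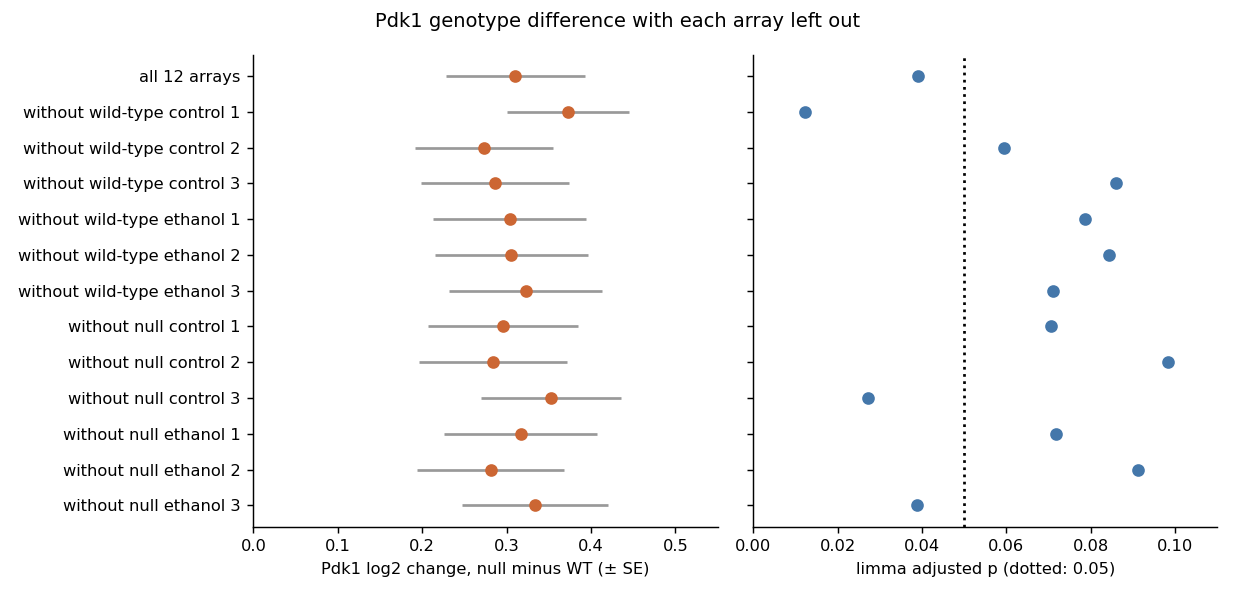
The left panel plots the Pdk1 log2 difference, null minus wild-type averaged over the diets, with its standard error, for all 12 arrays and with each array left out, and the right panel the limma adjusted p of the same fits. The difference stayed between 0.27 and 0.37, while the adjusted p crossed 0.05 (dotted line) in 9 of the 12 fits.

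A second Pdk1 probe set was dim, and being the lower of the pair it was not part of the fit. Wild-type mice gave 4.26, 4.14 and 4.11 on control diet and 4.46, 4.18 and 4.08 with ethanol. Null mice gave 4.66, 4.82 and 4.44 on control diet and 4.28, 4.61 and 4.84 with ethanol. Its null control arrays lay above its wild-type control arrays, its ethanol arrays overlapped, and all of these values lie under the filter.

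Markers of other cell types moved with genotype as well. Of all 14031 genes, 559 were called lower in null livers averaged over the diets (median of all genes -0.00047). Of the 15 macrophage and Kupffer cell markers, Adgre1 and Clec4f among them, 14 fell in that comparison (median -0.52). That number was 6 when null ethanol 1 was left out, 7 when wild-type ethanol 3 or wild-type control 1 was, and 8 for wild-type ethanol 2 and for null control 2. Their summed linear intensity ran from 6507 to 9391 for wild-type mice on control diet and from 8133 to 10299 with ethanol. In null mice it ran from 4098 to 5573 and from 5274 to 7486, and none of the 15 lay under the filter. Of 8 sinusoidal endothelial markers 2 fell and of 3 tested adipocyte markers 1 fell, Fabp4, which macrophages also express, while Adipoq and Lep lay under the filter on all arrays. Of 7 stellate cell and 10 hepatocyte markers 0 passed. Their part in the Pdk1 difference was not tested.

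In wild-type mice, Pdk2 read 10.14, 10.38 and 9.93 (replicates 1 to 3) on control diet and 10.31, 10.27 and 10.38 with ethanol. Null mice gave 10.77, 10.46 and 10.28 on control diet and 10.39, 10.44 and 10.48 with ethanol. Of the 6 null arrays, 5 lay above every wild-type array. The difference averaged over the diets was 0.24 ± 0.09 (95% confidence interval 0.04 to 0.44, limma adjusted p = 0.148). It was 0.36 ± 0.13 on control diet (adjusted p = 0.127) and 0.12 ± 0.13 on ethanol (adjusted p = 0.711). With arrays weighted by quality, Pdk2 passed on control diet (adjusted p = 0.0443) and in the average (adjusted p = 0.0494), and without wild-type control 2 it passed on control diet (0.47, adjusted p = 0.0432). Without null control 1 the control diet difference of Pdk2 was 0.22 (adjusted p = 0.342), and without wild-type control 3 it was 0.25 (adjusted p = 0.374).

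In wild-type mice, Angptl4 read 10.24, 10.96 and 11.07 (replicates 1 to 3) on control diet and 10.98, 11.12 and 10.93 with ethanol. Null mice gave 11.37, 10.95 and 11.25 on control diet and 11.28, 11.39 and 10.68 with ethanol. The groups overlapped on both diets, and the lowest value of all was wild-type control 1. Null livers differed from wild-type by 0.43 ± 0.22 on control diet (limma adjusted p = 0.259), by 0.11 ± 0.22 on ethanol (adjusted p = 0.858) and by 0.27 ± 0.15 on average (adjusted p = 0.337). The 95% confidence interval of the average ran from -0.06 to 0.60. Without wild-type control 1 the control diet difference was 0.18 and the average 0.14.

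Angptl4 lies on chromosome 17 like Ppard, with 177 RefSeq genes between them on GRCm38.p6. Genotype effects and sequence linked to Ppard cannot be told apart by this design. Of the 81 tested genes in between, 1 was called for genotype averaged over the diets, lower in null livers, which is 1.23% against 7% of all genes. The adjoining genes differed little, Rab11b, which encodes a small GTPase of vesicle recycling, by 0.02 ± 0.06 (limma adjusted p = 0.849) and Kank3 by 0.01 ± 0.08 (adjusted p = 0.963).

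In wild-type mice, Pdk4 read 8.07, 7.96 and 8.67 (replicates 1 to 3) on control diet and 8.74, 8.64 and 8.34 with ethanol. Null mice gave 7.40, 8.48 and 8.83 on control diet and 7.71, 8.08 and 7.42 with ethanol. The null control group held both the lowest and the highest value of the gene, with an SD of 0.75. All 3 null ethanol arrays lay below all 3 wild-type ethanol arrays. Null livers were 1.79-fold lower on ethanol (-0.84 ± 0.30, 95% confidence interval -1.495 to -0.18), which did not pass over all genes (limma adjusted p = 0.194). On control diet the difference was 0.0030 ± 0.30 (adjusted p = 0.997), and on average -0.42 ± 0.22 (adjusted p = 0.288), or -0.21 without null control 1.

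On single diets limma called 0 of the 4 tested members, on control diet beside 5.1% of all genes and on ethanol beside 1.79%. At an unadjusted p under 0.05 there were 2 of 4 on each diet, Pdk1 and Pdk2 on control diet and Pdk1 and Pdk4 on ethanol. Of all 14031 genes, 3097 lay under that limit on control diet and 2267 on ethanol. The arrays of null and wild-type mice did not overlap for 3 of the 4 on ethanol (Pdk1, Pdk2 and Pdk4), beside 24.1% of all genes. On control diet they did not overlap for 0 of the 4, beside 24.7% of all genes.

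In wild-type mice, Ucp3 read 4.92, 4.64 and 4.63 (replicates 1 to 3) on control diet and 4.55, 4.24 and 4.77 with ethanol. Null mice gave 4.53, 4.39 and 4.75 on control diet and 4.31, 4.96 and 4.61 with ethanol. All 4 groups overlapped, their means ran from 4.52 to 4.73, and each value lay below its array's filter, so Ucp3 is read as dim and was not tested. The null minus wild-type difference of group means averaged over the diets was -0.03. Of the 6 skeletal muscle markers, Acta1, Tnnt3 and Tnni2 lay above the filter on all 12 arrays, Ckm on 2, and Myh4 and Mylpf on 0. C2cd3, a centriole gene that adjoins Ucp3 on the side away from Ucp2, differed by -0.03 ± 0.06 (limma adjusted p = 0.83).

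Ethanol against control diet asked whether chronic ethanol moves these genes with and without the receptor. None of the 4 tested members passed with limma in either genotype or in the average. The shares of all genes called were 0.0927% in wild-type mice, 0.00713% in null mice and 0.0143% in the average. At an unadjusted p under 0.05 there were 0 of the 4 in each, beside 2035, 1709 and 1702 of all 14031 genes in that order. The arrays of the 2 diets overlapped for all 4 in both genotypes, where they did not overlap for 19.4% of all genes in wild-type and 18.6% in null mice.

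In wild-type mice, Pdk4 differed by 0.34 ± 0.30 with ethanol (limma adjusted p = 0.643) and Angptl4 by 0.25 ± 0.22 (adjusted p = 0.621). Pdk2 differed by 0.17 ± 0.13 (adjusted p = 0.574) and Pdk1 by -0.14 ± 0.12 (adjusted p = 0.608). Without wild-type control 1 the Angptl4 difference was -0.0049. The 95% confidence interval of each of these changes held 0. In null mice, all 4 point values were negative. Pdk4 differed by -0.50 ± 0.30 (adjusted p = 0.509) and Pdk1 by -0.17 ± 0.12 (adjusted p = 0.554). Angptl4 differed by -0.08 ± 0.22 (adjusted p = 0.91) and Pdk2 by -0.07 ± 0.13 (adjusted p = 0.855). The 95% confidence interval of the Angptl4 change was -0.21 to 0.72 in wild-type and -0.54 to 0.39 in null mice. For Pdk4 the intervals were -0.32 to 0.997 and -1.16 to 0.16. The Pdk4 change in null mice was -0.92 without null control 1 and -0.20 without null control 3. Averaged over the genotypes, the change of largest size was that of Pdk1, -0.16 ± 0.08 (adjusted p = 0.46).

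The interaction, the ethanol effect in null mice minus that in wild-type mice, tested directly whether the response differs between the genotypes. It was -0.84 ± 0.43 for Pdk4 (95% confidence interval -1.77 to 0.09, limma adjusted p = 0.372), -0.33 ± 0.31 for Angptl4 (adjusted p = 0.623), -0.24 ± 0.18 for Pdk2 (adjusted p = 0.55) and -0.03 ± 0.16 for Pdk1 (adjusted p = 0.949). None of the 4 passed, beside 0.0143% of all genes called. At an unadjusted p under 0.05 there were 0 of the 4, beside 2110 of all 14031 genes. For Pdk4, leaving out 1 array at a time gave values from -1.26 (null control 1) to -0.54 (null control 3).

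**Figure D3:**
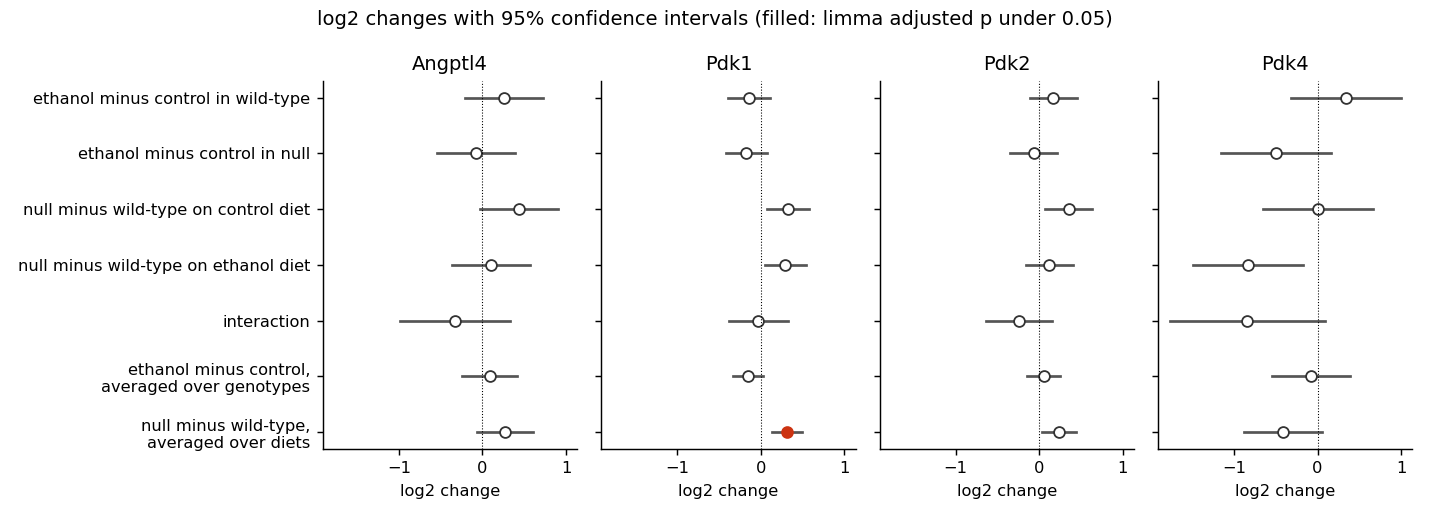
Each panel plots the log2 changes of 1 tested member in the 7 comparisons, with 95% confidence intervals from limma and a filled point where the adjusted p was under 0.05. The 1 filled point is that of Pdk1 for null minus wild-type averaged over the diets, and the intervals of Pdk4 are the widest.

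In order of group means, Angptl4, Pdk1 and Pdk2 were all highest in null control and next in null ethanol livers, and Pdk4 was highest in wild-type ethanol and lowest in null ethanol livers. Neighbours in these orders were not told apart. For Angptl4, Pdk1 and Pdk4 the arrays of each pair of neighbouring groups overlapped, and for Pdk2 null ethanol lay above wild-type ethanol by less than the test could call. Pdk2 and Pdk4 varied against each other, with Pearson's r = -0.63 and Spearman's rho = -0.64 over the 12 arrays and r = -0.88 after group means were subtracted. Null control 1 held the highest Pdk2 value and the lowest Pdk4 value of all arrays. The 9 other pairs of members had r from -0.36 to 0.49. These are descriptions, as the arrays of a group share genotype and diet.

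Among all tested genes, those most like each member over the 12 arrays were chosen by Pearson's r. For Angptl4 they were Dusp23 (r = 0.89), Epas1, which encodes the hypoxia-inducible factor HIF-2α (0.88), and Ccn2, which encodes a connective tissue growth factor (0.87). For Pdk1 they were Fuca2 (0.92), Fam76a (0.92) and Ddx59 (0.91). For Pdk2 they were Cyp2d22 (0.96), R3hdm2 (0.94) and Plekha6 (0.93), and for Pdk4 Galns (0.93), Slc34a2 (0.91) and Il22ra1 (0.91). After group means were subtracted, r for these 12 pairs lay between 0.78 and 0.94. For the dim Ucp3 they were Ndn (0.90), Lpar4 (0.87) and Thbd (0.83). The best of 14031 correlations over 12 arrays are high by selection.

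Genes around the members were taken from 7 lists: PPAR receptors and partners, other PPAR targets of liver, Angptl and lipase genes, the pyruvate dehydrogenase complex, mitochondrial carriers, fasting and FOXO targets, and hypoxia targets. Of the 119 listed genes, also chosen with earlier results of these data known, 103 were tested. For genotype averaged over the diets 9 passed (8.74%, against 7% of all genes). On control diet 6 passed (5.83%, against 5.1% of all genes) and on ethanol 5 (4.85%, against 1.79%). With ethanol in wild-type mice, in null mice or on average, and for the interaction, limma called 0 of 103. At an unadjusted p under 0.05 there were 20, 10, 14 and 15 of the 103 in that order. Of all 14031 genes there were 2035, 1709, 1702 and 2110.

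Of the 12 tested Angptl and lipase genes, 1 rose and 1 fell in null livers on average (median 0.02). Lpl, which encodes lipoprotein lipase, the enzyme that Angptl4 blocks, fell by 0.59 ± 0.16 (1.51-fold, limma adjusted p = 0.0425). Lpl fell on ethanol by 1.08 ± 0.22 (2.11-fold, adjusted p = 0.0282), from between 8.63 and 9.30 in wild-type to between 7.68 and 8.11 in null arrays. On control diet Lpl differed by -0.11 ± 0.22 (adjusted p = 0.826), and its interaction did not pass (-0.97, adjusted p = 0.224). With 1 array left out, the averaged call for Lpl held in 3 of 12 fits (null control 2, wild-type control 3 or wild-type ethanol 1 omitted). The call on ethanol held in 7 and was lost when wild-type ethanol 2 or 3 or any null ethanol array was omitted. Sdc1, which encodes a heparan sulfate proteoglycan, fell on ethanol by 0.40 ± 0.09 (adjusted p = 0.0499), a call held in 3 of 12 fits (those omitting wild-type control 2, wild-type control 3 or null control 3). Lipg, which encodes endothelial lipase, rose 1.94-fold (0.96 ± 0.21, adjusted p = 0.0145) and kept its call in all 12 fits with 1 array left out.

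Of the 11 tested pyruvate dehydrogenase genes, 1 rose and 0 fell in null livers on average (median 0.05). Pdhb, which encodes the beta subunit of the enzyme that PDKs inactivate, rose 1.22-fold (0.28 ± 0.07, limma adjusted p = 0.0278), a call lost when wild-type ethanol 2 or 3, null control 2 or 3, or null ethanol 1 or 3 was omitted. Pdk3, the remaining kinase of the family, lay under the filter in all 4 groups (4.64 to 5.20). Of the 7 tested mitochondrial carriers 0 passed in any comparison. The carrier nearest to passing for genotype was Slc25a30 (-0.74 ± 0.29, adjusted p = 0.146), and Ucp1, the uncoupling protein of brown fat, read 4.70 to 5.52.

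Of the 31 other PPAR targets tested, 2 rose and 0 fell in null livers on average (median 0.06). Fgf21, which encodes a fasting hormone of the liver, rose 2.22-fold (1.15 ± 0.19, limma adjusted p = 0.00251) and kept its call in all 12 fits. It also rose on control diet (2.26-fold, adjusted p = 0.0243) and on ethanol (2.19-fold, adjusted p = 0.0485), calls held in 9 and 3 of the 12 fits; the first was lost when wild-type control 1 or null control 2 or 3 was omitted, the second held when null control 1, null control 3 or null ethanol 3 was omitted. Txnip, which encodes a thioredoxin-binding protein, rose (0.59 ± 0.14, adjusted p = 0.0242), a call lost when wild-type ethanol 1 or 3, wild-type control 3, or null ethanol 1 or 3 was omitted. On control diet Acot2, which encodes a mitochondrial acyl-CoA thioesterase and has near-identical copies that may share probes, rose 2.06-fold (1.04 ± 0.22, adjusted p = 0.0184), a call lost when wild-type control 3 or null control 2 or 3 was omitted. Creb3l3, which encodes a liver transcription factor, rose by 0.33 ± 0.09 there (adjusted p = 0.0439), held in 3 of 12 fits (those omitting wild-type control 2, null control 1 or null ethanol 3). On ethanol Slc27a1, which encodes a fatty acid transporter, fell by 0.85 ± 0.17 (adjusted p = 0.0223), lost when wild-type ethanol 2 or 3 or null ethanol 2 or 3 was omitted.

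Of the 11 receptors and partners 1 rose, Rxrg, a retinoid X receptor, by 1.29-fold (0.36 ± 0.07, adjusted p = 0.0104), in all 12 fits. Ppargc1b, which encodes a coactivator of nuclear receptors, rose on control diet (0.61 ± 0.15, adjusted p = 0.0349), lost when null control 1 or 2, wild-type ethanol 2, or wild-type control 2 or 3 was omitted. Of the 16 fasting and FOXO targets 0 passed on average, with Per1, a clock gene that glucocorticoids induce, at 0.81 ± 0.25 (limma adjusted p = 0.0719). Sgk1, a kinase gene that glucocorticoids induce, rose on control diet (0.64 ± 0.17, adjusted p = 0.0477), held in 3 of 12 fits (those omitting wild-type ethanol 1, null ethanol 1 or null ethanol 3).

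Of the 15 hypoxia targets beside Pdk1, 1 rose and 2 fell (median 0.03). Pfkfb3, which encodes a glycolytic regulator, rose 2.07-fold (1.05 ± 0.26, limma adjusted p = 0.0276), a call lost when null ethanol 1 or 2, wild-type ethanol 3, or wild-type control 1 or 2 was omitted. P4ha1, which encodes a collagen prolyl hydroxylase, fell by 0.57 ± 0.11 (adjusted p = 0.00969) in all 12 fits. Slc2a1, which encodes the glucose transporter GLUT1, fell by 0.28 ± 0.08 (adjusted p = 0.0452), a call held in 3 of 12 fits (those omitting wild-type ethanol 2, null control 3 or null ethanol 3). On ethanol Slc2a1 fell by 0.47 ± 0.11 (adjusted p = 0.0495), held in 2 of 12 fits (those omitting null control 3 or null ethanol 3), and P4ha1 fell on control diet by 0.62 ± 0.16 (adjusted p = 0.0461), held in 4 of 12 fits (those omitting wild-type control 2, null control 3, null ethanol 1 or null ethanol 3).

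**Figure D4:**
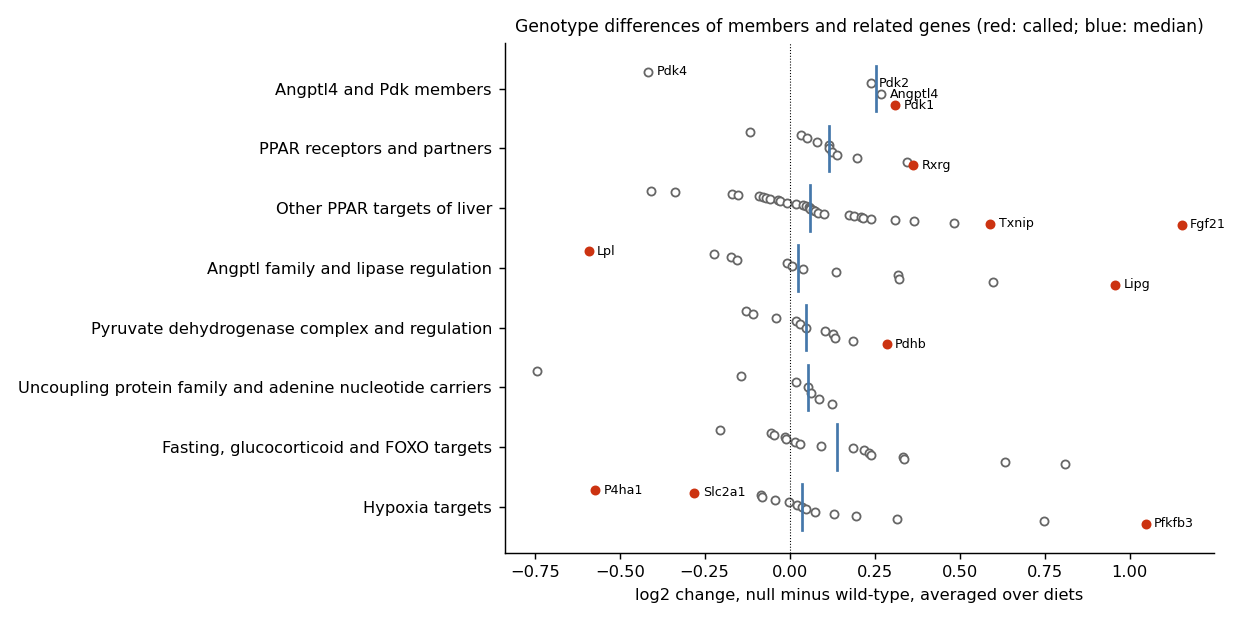
Each point is the log2 change of 1 gene, null minus wild-type averaged over the diets, for the 4 tested members (top line) and the tested genes of 7 lists, with called genes in red and the median of each list as a blue line. Pdk1 is the called member, Fgf21 and Pfkfb3 lie farthest to the right among the called genes, and Lpl and P4ha1 lie farthest to the left among them.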

How the data were processed

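Liver RNA was hybridised to 12 Affymetrix Mouse Gene 2.0 ST arrays. The deposited intensity values (1 per probe set and array, 1.816 to 20156, hence linear) are RMA-normalised, per the submitters' processing notes; the sources used here give no software, version or build. Log2 was taken here. Of 41345 probe sets, 23521 name 1 gene, 1814 name several and 16010 none; 23328 of the first matched RefSeq of GRCm38.p6 by Entrez ID, used for names, order and start sequences. A gene was tested if it lay above the 40th percentile of its array on at least 3 arrays.

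limma 3.58.1 in R 4.3.3 was used to fit a mean for each of the 4 groups over the 12 arrays (8 residual, 4.95 prior degrees of freedom), with 7 contrasts and Benjamini-Hochberg adjustment over 14031 genes within each, called under 0.05. The fit was tested on simulated data. Members, lists and comparisons were chosen with earlier results of these data known. Named genes were the members, the 3 most like each member (predicted genes, clone names, microRNAs and snoRNAs passed over), Ppard and adjoining genes. From the 3 with the smallest p of a list, those called for genotype were named. Where none was called for genotype on average, the first was named. Others of these 3, Angptl8 and Vldlr among them, were not described. Pdk3, Ucp1 and the muscle markers were added after their values were seen. The labels give no batch. Alternatives covered filters, probe sets, normalisation, weights, an offset of 16, a replicate block and each array left out.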

Additional observations from a re-analysis of the deposited data

Results flagged for a closer look

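For Pdk4 and Pdk2, the ethanol arrays lay on opposite sides of their control mean in wild-type and null mice. No ethanol change of either gene passed, and the arrays of the diets overlapped. How many of all genes show the same pattern was not counted, so whether it is unusual was not tested. Each wild-type ethanol array lay above the wild-type control mean for Pdk4, by 0.11 to 0.51, and each null ethanol array below the null control mean, by values from -0.82 to -0.16. The interaction of Pdk4 was -0.84 and did not pass (limma adjusted p = 0.372). For Pdk2 the wild-type ethanol arrays lay 0.12 to 0.23 above their control mean, the null ethanol arrays lay at -0.11 to -0.02 against theirs, and the interaction was -0.24 (limma adjusted p = 0.55). Without null control 1 the Pdk2 change in null mice was 0.066. With 3 arrays per group no single array was tested for standing apart.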

How the results depend on the processing

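Of the values of the 4 tested members under alternatives, 568 kept direction and side of the threshold, 22 changed sign, 11 lost a call and 3 gained one; the cause was not tested. For null minus wild-type averaged over the diets, the number of members called, 1 with all arrays, was 0 without the filter and with array medians subtracted, 2 with array weights (Pdk1 and Pdk2), and 0 to 1 with 1 array left out. On control diet it was 1 with array weights (Pdk2) and 0 to 1 with 1 array left out. In the other 5 comparisons it was 0 in every alternative.

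Sign changes were all of values without a call. With array weights the ethanol change of Angptl4 in null mice was 0.13 and the interaction of Pdk1 0.035. With quantile normalisation the Pdk4 difference on control diet was -0.060 and the Pdk1 interaction 0.080. With 1 array left out, Angptl4 ran from -0.0049 to 0.41 for ethanol in wild-type mice, -0.21 to 0.14 in null mice, -0.040 to 0.20 on average, and -0.032 to 0.32 for genotype on ethanol. Pdk2 ran from -0.18 to 0.066 for ethanol in null mice and -0.0033 to 0.12 on average. Pdk4 ran from -0.29 to 0.42 for genotype on control diet and -0.29 to 0.068 for ethanol on average, and the Pdk1 interaction from -0.16 to 0.044.

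Of 18 same-numbered array pairs, 2 had deviations correlated over 0.1 (r from -0.15 to 0.19). For pairs of different numbers r ran from -0.15 to 0.21, and 7 of 36 best matches were of the same number. With so few arrays a group, these values cannot decide whether arrays of the same number were handled together, and the labels give no batch. With the number as a replicate block 1 member, Pdk1, was called for genotype on average (limma adjusted p = 0.0488), and no call changed. For dim Ucp3 the arrays show only that its probe set read below the filter, and no change of it was tested.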
